A study of Mus musculus with 12 samples.

Results

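The genes described here encode the ion channels and transporters that turn an odour signal into current in the cilia of olfactory sensory neurons. They were taken by gene symbol from a list of 8 (Cnga2, Cnga4, Cngb1, Ano2, Slc24a4, Slc12a2, Best2 and Stoml3), and all 8 were measured among 19937 genes, each by the probe with the highest mean where a gene had several. The study measured olfactory epithelium of male C57BL/6 mice on Affymetrix arrays. The mice had been entrained to light and dark and then kept in constant darkness. Each array held the RNA of 4 pooled animals (48 mice in 12 pools), with no age in the labels. The pools of the second cycle were taken at CT36, CT40, CT44, CT48, CT52 and CT56, and those of the first at CT12, CT16, CT20, CT24, CT28 and CT32, where CT is circadian time in hours. All pools share strain, sex, tissue and housing, and there is no untreated or mutant group. Each phase of the day holds 1 pool per cycle, so errors measure the spread between pools and not between mice, and precision is limited by how many arrays there are.

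In the cilium, odorant receptors raise cAMP, which opens a cyclic nucleotide-gated channel built from the subunits of Cnga2, Cnga4 and Cngb1. Calcium that enters opens the chloride channel of Ano2. The chloride gradient depends on the cotransporter of Slc12a2, and the sodium, potassium and calcium exchanger of Slc24a4 removes calcium. Best2 encodes a bestrophin once proposed as the chloride channel, and Stoml3 a stomatin-like membrane protein of the cilia.

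Sequences before the start site are shown for Cnga2, Ano2, Slc24a4 and Cngb1, the genes whose levels in the second cycle differed most from those in the first. RefSeq windows of GRCm38.p6 ran from 250 bases before to 50 after each start. They were used for 6 of the 8 genes (8 windows, 3 of them Ano2), with genes identified by symbol. The 150 bases before the start are printed 5′ to 3′ on the gene's strand, with motif matches in capitals. They lie at chrX:71991699-71991848 (plus strand) for Cnga2, at chr6:125711038-125711187 (plus strand) for the most downstream of the 3 Ano2 starts, at chr12:102128577-102128726 (plus strand) for Slc24a4 and at chr8:95306586-95306735 (minus strand) for Cngb1.
Cnga2: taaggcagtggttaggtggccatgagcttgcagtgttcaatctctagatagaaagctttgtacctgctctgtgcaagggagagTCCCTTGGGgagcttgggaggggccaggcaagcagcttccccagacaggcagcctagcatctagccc
Ano2: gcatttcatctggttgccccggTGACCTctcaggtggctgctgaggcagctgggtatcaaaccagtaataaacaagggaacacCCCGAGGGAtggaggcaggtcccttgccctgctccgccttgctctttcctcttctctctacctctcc
Slc24a4: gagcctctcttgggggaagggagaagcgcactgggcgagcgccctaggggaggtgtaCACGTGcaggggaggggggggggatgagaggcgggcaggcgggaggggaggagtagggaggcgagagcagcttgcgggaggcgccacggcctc
Cngb1: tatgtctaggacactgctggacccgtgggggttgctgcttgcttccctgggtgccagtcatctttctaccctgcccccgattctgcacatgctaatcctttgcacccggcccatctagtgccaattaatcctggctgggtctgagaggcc

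Motifs were searched on both strands of all 300 bases. No window of Slc12a2 or Best2 was searched, so the motif counts say nothing about either. TCCCNNGGG is a form of the site of the EBF factors that act in many olfactory neuron genes. It matched in 2 of the 6 genes and in 2 of their 8 windows, against 6.56% of 32851 windows of the same length. In Cnga2 it matched the plus strand and in Ano2 the minus strand, and both matches begin at position -67 from the start site. The Ano2 match lies in the window printed, and the other Ano2 windows held no match to any motif searched. CACGTG, the E-box bound by the clock activators, matched only in Slc24a4 among these genes, at position -93, and in 7.15% of all windows. AGGTCA, a nuclear receptor motif, matched once, on the minus strand of Ano2 at position -128, and in 16.3% of all windows. The sequences TTATGTAA and TTACGTAA (D-boxes), TGACGTCA (the cAMP response element) and TAATTA (a homeodomain core) matched in 0 of the 6 genes, against 0.938%, 0.119%, 1.79% and 5.29% of all windows. No 2 matches overlapped in these windows. A match describes these letters and does not show that a factor binds. Cngb1 also makes a longer transcript in rods, and which transcript starts at its window was not examined.

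Clock genes were rhythmic in the same pools. Dbp, a clock output factor, read highest at CT32 and CT56 (9.80 and 9.91 log2), and its 24 h amplitude, the distance from mean to peak on the log2 scale, was 0.51 ± 0.05 (SE, 12 pools). Array medians lay between 7.81 and 7.92 log2. CT56 stood apart, with a mean correlation with the other pools of 0.975, against 0.981 to 0.988 for the remaining 11. Leaving it out together with CT32, the next lowest, added no call among the 8 genes. Omp, the defining marker of mature sensory neurons, read between 12.70 and 13.08 in every pool. Pde6b and Gnat1, photoreceptor genes that share the cyclic nucleotide pathway but belong to another tissue, read between 6.05 and 6.65.

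The first question was whether the channel genes follow the day. No member passed the 24 h test (0 of 8, limma, adjusted p of 0.996 to 0.997), where 5 of 19937 genes, or 0.0251%, did. Slc12a2 alone had an unadjusted p under 0.05, as did 3.54% of all genes. Fitted amplitudes of the 8 lay between 0.01 and 0.11 with a median of 0.054, against a median of 0.065 over all genes. The amplitudes of Dbp, Nr1d1 and Arntl were 0.51, 0.42 and 0.35 (limma, adjusted p = 0.00173, 0.00173 and 0.0141).

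**Figure D1:**
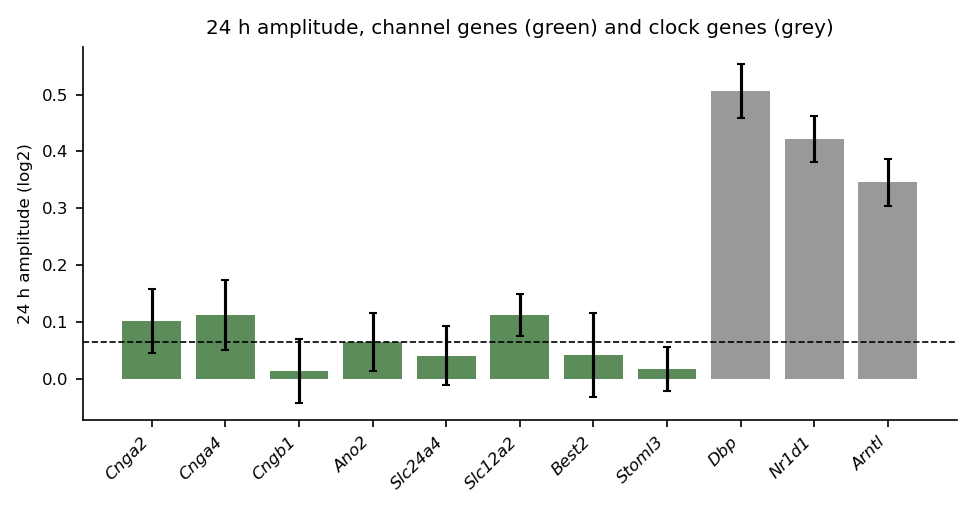
Fitted 24 h amplitude (log2) of the 8 channel and transporter genes (green) and of 3 clock genes (grey), with bars for the standard error over 12 pools. The dashed line is the median of all genes, 0.065, and the tallest of the 8, Cnga4, reaches 0.113.

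Slc12a2, the chloride importer, showed the most regular course. At phase 16 h it read 12.20 (CT40) and 12.14 (CT16), at phase 20 h 12.21 (CT44) and 12.16 (CT20), and at phase 0 h 12.19 (CT48) and 12.15 (CT24). At phases 4, 8 and 12 h its 6 pools lay between 11.90 and 12.05. The 3 phases from 16 to 0 h therefore stood above the other 3 in both cycles, with no overlap, a grouping made after the values were seen. The amplitude was 0.11 ± 0.04 (SE, 12 pools), a peak 1.17-fold above the trough, with a fitted peak at CT 20.5, and the cosine held a share of 0.72 of the variance. Over single orders of the pools its permutation p was 0.00597, 1 of 8 such tests, while limma over all genes gave an adjusted p of 0.996. The unadjusted limma p was above 0.05 without CT48, without CT44, with phase as a factor or relative to mature neuron markers. On that last scale the amplitude of Slc12a2 was 0.067 (limma, adjusted p = 0.847). Cnga2, at 0.144 (limma, adjusted p = 0.559), was the 1 member with an unadjusted p under 0.05, where 1442 of 19937 genes had one. Among the markers, Kirrel2 had a 24 h amplitude of 0.80 with a fitted peak at CT 19.9 (limma, adjusted p = 0.142). Its wave is part of the marker mean, so subtracting that mean tends to lower amplitudes that peak near that hour and to raise opposite ones. Slc12a2 is also expressed outside neurons, in glands and other epithelial cells.

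Cnga4, a modulatory subunit of the channel, had an amplitude as large as that of Slc12a2 but a far less regular course. Its lowest pools were CT28 at 11.11, CT44 at 11.18 and CT20 at 11.32, and its highest was CT12 at 11.72. At phase 20 h both cycles were low, with 11.18 at CT44 and 11.32 at CT20. At phase 4 h they were not alike, with 11.48 at CT52 and 11.11 at CT28. The amplitude was 0.11 ± 0.06, and the cosine held a share of 0.25 of the variance (permutation p = 0.289).

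Cnga2, a subunit of the channel that is required for the odour response, was lowest at phase 20 h, at 12.32 (CT44) and 12.51 (CT20). Its mean of both cycles was highest at phase 12 h, at 12.62 (CT36) and 12.84 (CT12), though in the second cycle CT48 read 12.63. In the first cycle CT32 was as high as CT12, at 12.83, while its partner CT56 read 12.48. Its amplitude was 0.10 ± 0.06 with a peak at CT 10.2 (permutation p = 0.271). The fitted peaks of Cnga2 and Cnga4, late in the subjective day, lay about opposite to that of Slc12a2. These peak times belong to fits that did not pass.

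For the other 5 genes the cosine described little. The amplitude of Ano2 was 0.07 ± 0.05 and that of Slc24a4 0.04 ± 0.05, with fitted peaks at CT 20.3 and CT 21.5. That of Cngb1, the subunit that helps carry the channel into the cilium, was 0.01 ± 0.06, with a share of 0.0069 of the variance. Stoml3 varied least of the 8, with 13.61 to 13.83 over all pools (SD 0.06) and an amplitude of 0.02 ± 0.04. Best2 varied most, with 6.51 at CT56 to 7.13 at CT36 (SD 0.19), and its amplitude was 0.04 ± 0.07. That amplitude ran from 0.018 without CT48 to 0.118 without CT56, and was 0.159 without CT32 and CT56. All its values lie under the array medians, and the values come with no detection call. The permutation p of these 5 genes lay between 0.453 and 0.969.

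**Figure D2:**
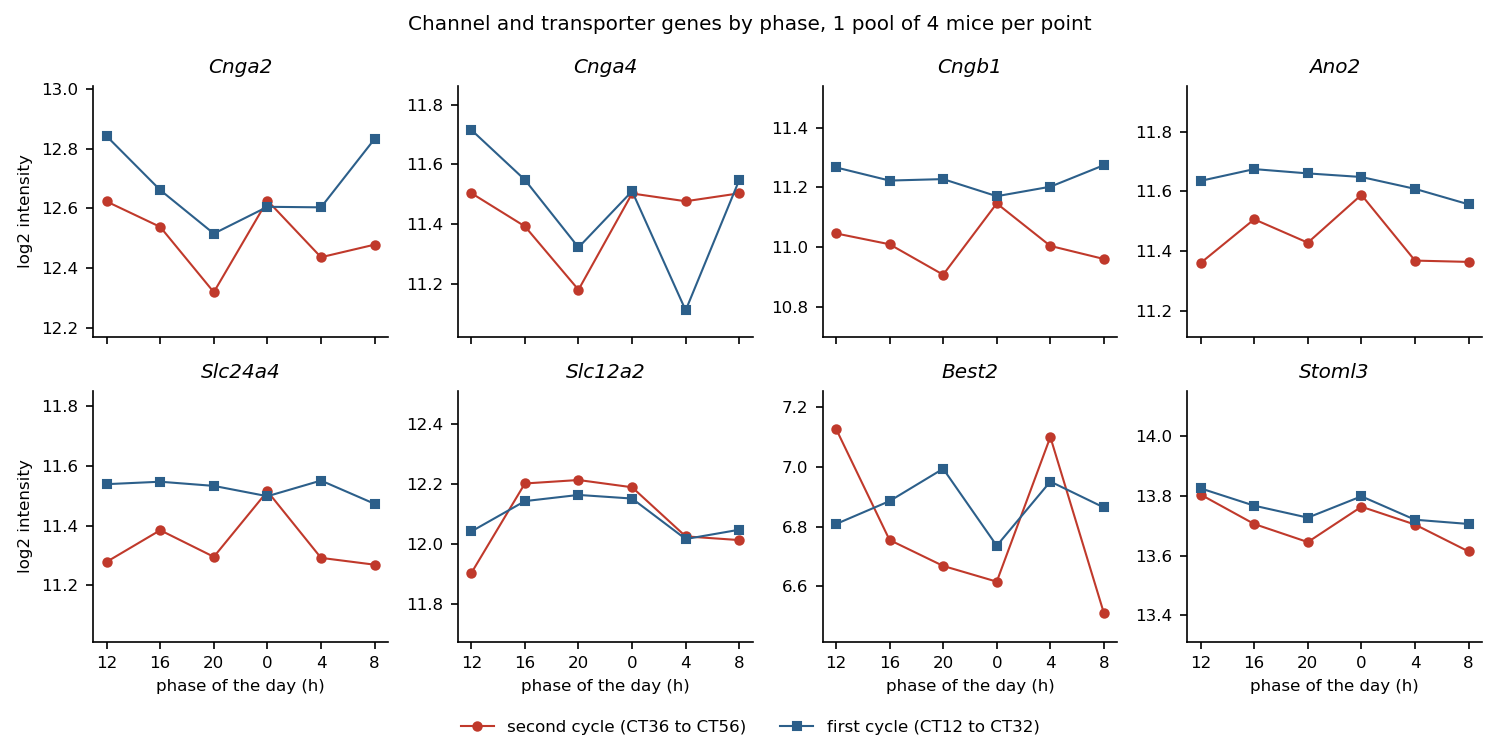
Log2 intensity of each gene by phase of the day, with 1 point per pool; red circles are the second cycle (CT36 to CT56) and blue squares the first (CT12 to CT32), and every panel spans the same log2 range. Slc12a2 stands highest at phases 16 to 0 h in both cycles, while the second cycle of Cngb1 lies under the first throughout.

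Each pool of the second cycle was then compared with the pool of the same phase in the first. All 8 genes read lower on average in the second cycle, as did 61.7% of all genes, and the median difference of the 8 was -0.13 log2 against -0.03 over all genes. No member passed (0 of 8, limma), nor did any gene (0 of 19937, 0%). At an unadjusted p under 0.05 there were 4 members, Cngb1, Ano2, Slc24a4 and Cnga2, all lower. Of all genes 13.2% had such a p, and 8.94% had one and were lower. The labels do not say whether arrays were run in batches, so time in darkness and a batch that runs with the cycle cannot be told apart. With RNA of whole tissue, fewer cells of a type and less RNA per cell cannot be told apart either.

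Cngb1 read 10.91 at its lowest, 11.01 at the median and 11.15 at its highest in the second cycle, against 11.17, 11.23 and 11.27 in the first. It was the 1 member whose cycles did not overlap; in 0.923% of all genes the second cycle lay wholly under the first. The difference was -0.22 ± 0.06 (SE, 6 pairs of pools), or 13.9% lower (limma, adjusted p = 0.304). It was negative in 6 of 6 pairs, from -0.32 to -0.02, with an exact sign-flip p of 0.03125, the lowest possible over 6 pairs. The pair closest together was CT48 and CT24.

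Cngb1 is covered by 4 probes, and they differed. The values above come from the brightest. The others averaged 8.81, 8.42 and 6.86 log2, with cycle differences of -0.14 ± 0.10, 0.02 ± 0.07 and -0.04 ± 0.10 (SE). Their correlations with the brightest probe over 12 pools were 0.30, -0.13 and 0.21. With the mean of all probes the difference of the gene was -0.093 in place of -0.22 (limma, adjusted p = 0.538). The non-overlap of the cycles is a statement on the brightest probe. The locus also makes a longer transcript in rods, and the probes' annotation does not say which part of the gene each covers.

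Ano2, the calcium-activated chloride channel, read 11.36, 11.40 and 11.59 (lowest, median and highest) in the second cycle, against 11.56, 11.64 and 11.67 in the first. Of the 6 pools of the second cycle 5 lay below the lowest of the first, the exception being CT48. The difference was -0.19 ± 0.05 (limma, adjusted p = 0.304), lower in 6 of 6 pairs (exact sign-flip p = 0.03125).

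Slc24a4, the exchanger that clears calcium, behaved much the same. It read 11.27, 11.29 and 11.52 in the second cycle, against 11.47, 11.54 and 11.55 in the first, and again 5 of 6 pools lay below the lowest of the first. CT48 was the exception here too, at 11.52 against 11.50 at CT24. The difference was -0.18 ± 0.06 (limma, adjusted p = 0.304), lower in 5 of 6 pairs (exact sign-flip p = 0.0625).

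Cnga2 read 12.32, 12.51 and 12.63 in the second cycle, against 12.51, 12.63 and 12.84 in the first, and the cycles overlapped. The difference was -0.17 ± 0.06 (limma, adjusted p = 0.304), lower in 5 of 6 pairs, with CT48 level with CT24 at 12.63 and 12.60. The widest pair was CT56 against CT32, at -0.35, and without that pair the difference was -0.137.

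Stoml3 was lower in 6 of 6 pairs, but by little, at -0.05 ± 0.05 (limma, adjusted p = 0.68; exact sign-flip p = 0.03125). In 6.1% of all genes the second cycle was lower in every phase, and 3 of the 8 members were among them. Cnga4 differed by -0.03 ± 0.07, with 1 pair, CT52 against CT28, at 0.37 and the other 5 between -0.21 and -0.01. Best2 differed by -0.08 ± 0.09, its pairs running from -0.35 to 0.32. Its difference was -0.156 without CT12 or CT36 and -0.022 without CT32 or CT56. Slc12a2 differed by -0.003 ± 0.05 and was lower in 2 of 6 pairs, and it read 12.11 at the median of the second cycle against 12.10 in the first.

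The markers of mature sensory neurons that are not members also read lower on average. Of 11 such genes, 9 read lower in the second cycle, 5 of them with an unadjusted p under 0.05, and the median difference was -0.17. Omp differed by -0.20 ± 0.05 and Adcy3, the cyclase of the cilia, by -0.22 ± 0.06, while Gng13, a G protein subunit, differed by 0.15 ± 0.06 and S100a5, a calcium-binding protein, by 0.09 ± 0.05 (limma, adjusted p = 0.304, 0.304, 0.347 and 0.449). Their mean per pool, each gene taken from its own mean, lay between -0.12 and 0.08 in the second cycle and between -0.02 and 0.10 in the first. CT48 was the highest of the second cycle for this mean too. Their mean difference was -0.10 ± 0.06 (SD, 6 pairs), lower in 6 of 6.

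Subtracting that marker mean from each pool adds the same 0.10 to the difference of every gene, so the shift itself says nothing about a single gene. On this scale Cngb1 differed by -0.12 ± 0.05 and Ano2 by -0.09 ± 0.05, both lower in 6 of 6 pairs, Slc24a4 by -0.08 ± 0.05 and Cnga2 by -0.07 ± 0.05 (limma, adjusted p = 0.241, 0.299, 0.367 and 0.436). Only Cngb1 kept an unadjusted p under 0.05, where 4091 of 19937 genes had one on this scale, against 2625 in the main fit. The values of Stoml3, Cnga4 and Best2 were 0.05, 0.07 and 0.02, and that of Slc12a2 was 0.10 ± 0.05 (limma, adjusted p = 0.289). The markers share pools and arrays with the members, and their part in the result was not tested. Of the immature neuron markers 14 of 15 read lower, with a median difference of -0.16. Among other cell types the counts of lower markers and median differences were 6 of 9 sustentacular markers (-0.04), 4 of 6 horizontal basal markers (-0.03), 5 of 8 globose basal markers (-0.03), 8 of 10 gland markers (-0.10), 7 of 11 respiratory cilia markers (-0.08), 7 of 9 microvillar markers (-0.02) and 4 of 8 macrophage markers (-0.002). They were 4 of 6 bone and muscle markers (-0.01), 3 of 5 axon and brain markers (-0.02), the 1 blood marker (-0.06) and 2 of 2 photoreceptor markers (-0.05).

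**Figure D3:**
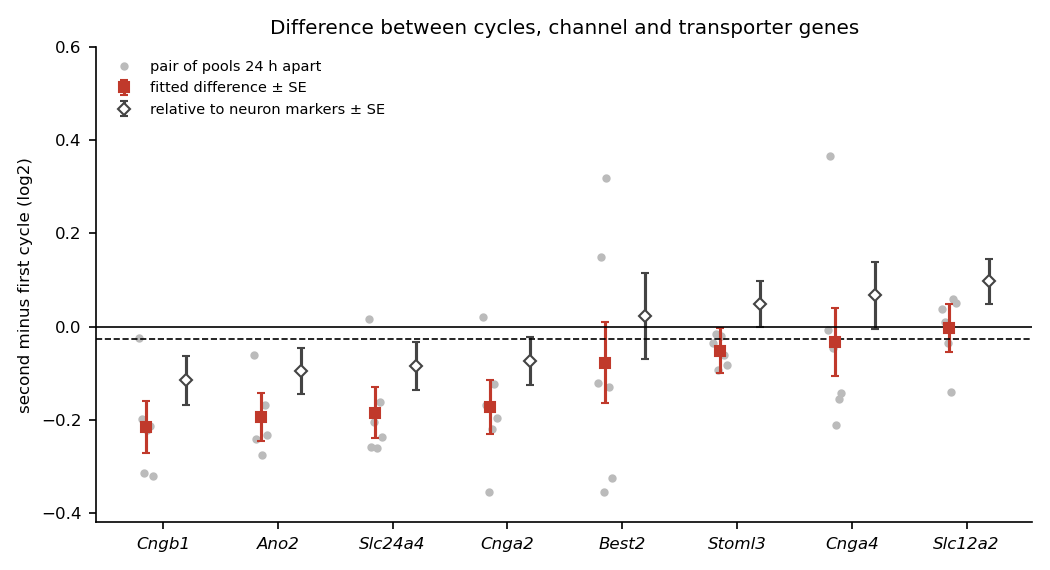
Second minus first cycle (log2) for each gene, ordered by the fitted difference. Grey points are the 6 pairs of pools 24 h apart, red squares the fitted difference with its SE, open diamonds the same relative to 11 mature neuron markers, and the dashed line the median of all genes. Cngb1, Ano2, Slc24a4 and Cnga2 lie lowest and Slc12a2 highest, and the diamonds are shifted up by the same 0.10 for every gene.

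Among themselves, the genes formed no single pattern over the pools. Of 28 pairs, 21 had a positive Pearson correlation over the 12 pools, with a median of 0.35 and a range of -0.48 to 0.97. Ano2 and Slc24a4 were the most alike pair (r = 0.97, Spearman's rho = 0.88, and r = 0.95 without the 2 pools farthest from the median of Ano2). Cngb1 followed both, with r = 0.84 and 0.89, and Cnga2 followed Cngb1 with r = 0.82. The subunits of 1 channel were not the most alike: Cnga4 correlated with Cnga2 at 0.63, or 0.25 without the 2 pools farthest from the median of Cnga2, and with Cngb1 at 0.32. Slc12a2 and Best2 were the most opposed, at -0.48. All pairs share the same pools, arrays and tissue composition, so these values are descriptions.

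**Figure D4:**
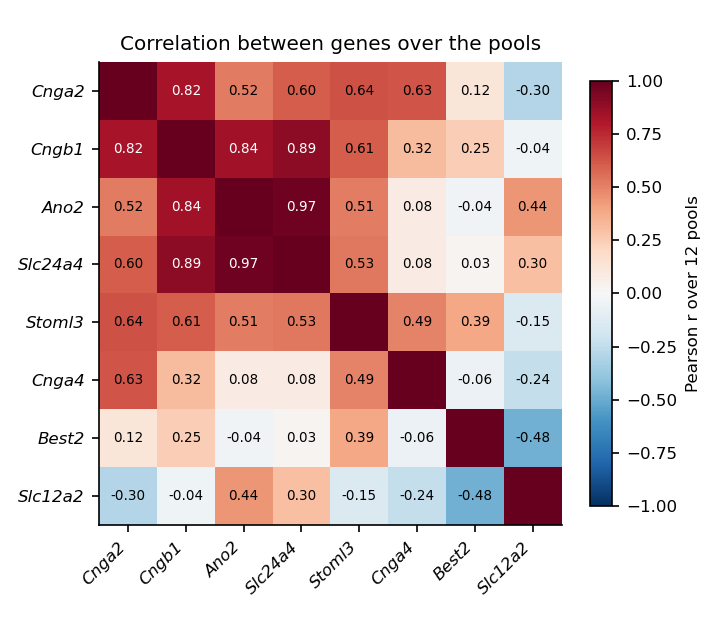
Pearson correlation of the 8 genes over the 12 pools, with the value of each pair in its cell and colour from blue (-1) to red (1). Cngb1, Ano2 and Slc24a4 form the block of highest values, between 0.84 and 0.97, and the row of Slc12a2 holds the lowest, -0.48.

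Of 9962 other genes with a mean at or above the median of all genes, those closest to each member over the 12 pools were found by Pearson's r. Adcy3 followed Cngb1 (r = 0.98, rho = 0.96). Cnga2 was closest to Acsl6, which activates fatty acids (r = 0.97), and to Otud3, a deubiquitinase (r = 0.96). Ano2 was closest to Afdn, which links junctions to actin (r = 0.93), and Madd (r = 0.93), and Slc24a4 to Usp48, a deubiquitinase, and Abcc1, a drug exporter (r = 0.95 and 0.94). Stoml3 was closest to Slc25a5, the mitochondrial exchanger of ADP and ATP (r = 0.95), Best2 to Rin1 (r = 0.95), Slc12a2 to Nprl2 (r = 0.96) and Cnga4 to 9330159F19Rik (r = 0.92). These genes were picked as the highest of all candidates, so the values carry no test.

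The rest of the pathway showed 0 calls in either fit (limma), and the adjusted p of the genes named here for the cycles lay between 0.304 and 0.377. Over all genes, 3.54% had an unadjusted 24 h p under 0.05. Between cycles 13.2% had one, and 8.94% had one and were lower. Of 19 other transduction genes, 0 had an unadjusted 24 h p under 0.05, and 6 had such a p between cycles, 5 lower and 1 higher. Among these 19, 7 are also neuron markers. The smallest p belonged to Calm3, a calmodulin gene, at -0.23 ± 0.06, then Omp and Adcy3. Of 28 relatives of the members in their gene families, 0 had a 24 h p under 0.05 and 6 had one between cycles, all lower. These were led by the cotransporter genes Slc12a7 at -0.22 ± 0.06 and Slc12a9 at -0.19 ± 0.06, with Ano8 at -0.15 ± 0.05 after them.

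Of 33 other ion channels, exchangers, pumps and their partners, 4 had an unadjusted 24 h p under 0.05, against 3.54% of all genes. The list is not limited to sensory neurons, and its genes Cftr and Trpm5 are also among the microvillar markers. Kcnq1, a potassium channel gene, had 24 h swings of 0.19 ± 0.04 in amplitude, highest near CT 10.1 (limma, adjusted p = 0.617). Cacna1h, a calcium channel gene, had 0.17 ± 0.05, and Atp2b1, a plasma membrane calcium pump gene, 0.21 ± 0.06 (limma, adjusted p = 0.996 for both). Between cycles 7 of the 33 had such a p, 6 lower and 1 higher, against 13.2% of all genes, with 8.94% lower. The lower ones were led by the potassium channel gene Kcnk10 at -0.20 ± 0.06, Hcn4, which encodes a pacemaker channel, at -0.18 ± 0.06, and Slc8a1, a sodium and calcium exchanger gene, at -0.18 ± 0.07. The higher one was Scn9a, a sodium channel gene, at 0.20 ± 0.08 (limma, adjusted p = 0.352), named after its value was seen. Of 12 genes that carry proteins into cilia, 0 and 2 had a p under 0.05 in the 24 h and the cycle fit, and those in the cycle fit were Kif3a, a kinesin motor gene, at -0.20 ± 0.07 and Bbs1 at -0.14 ± 0.06. The median cycle differences of these 4 lists were -0.06, -0.06, -0.05 and -0.06, against -0.13 for the members and -0.03 for all genes. Those of the mature and immature neuron markers were -0.17 and -0.16, and those of the other cell types lay between -0.10 and -0.002.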

How the data were processed

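Olfactory epithelium RNA of 12 pools was hybridised to Affymetrix arrays per the labels' protocols. The authors deposited 1 log2 intensity per probe and pool, read as log2 from its range (3.48 to 14.47). The submitters' processing notes name the tool affy with no version; how the values were normalized or centred is not given. Of 34760 probes, 21640 carried 1 gene symbol in the platform annotation, 21553 matched a RefSeq list by Entrez ID, and 19937 genes were left.

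The deposited values were fitted in limma 3.58.1 (R 4.3.3, with version 1.17.8 of data.table). A 24 h cosine and sine were tested over all pools (9 residual degrees of freedom), and the second cycle against the first with phase as a factor (5), with Benjamini-Hochberg adjustment over all genes and a threshold of 0.05. The fits were tested on simulated data. Single genes had 100000 permutations of the pool order and an exact sign-flip test over 6 pairs, two-sided. The genes, lists and motifs were chosen with earlier results of these data known. Named genes were the members, 3 clock genes, up to 3 genes per list by p, neuron markers that moved either way (chosen after their values were seen) and the genes closest in pattern, of 2 found per member. Figures used matplotlib 3.10.9, numpy 2.4.6, pandas 2.3.3 and Python 3.11.15.

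Alternatives were median centring, quantile normalization, a filter at the 25th percentile, averaged probes, array weights, a trended robust prior, levels relative to neuron markers, a term of time or cycle, other periods (22 and 26 h), phase as a factor, no phase term or cosines in the cycle fit, and leaving out pools.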

Additional observations from a re-analysis of the deposited data

Results flagged for a closer look

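In each of the 8 genes the 6 pools of either cycle were searched for 1 pool that stands apart, in 16 groups, where chance gives about 0.8. There was 1. Cnga4 at CT44 read 11.18, below the other pools of the second cycle, with a gap to the nearest of 0.656 of the whole range, above Dixon's critical value for 6 samples. The first cycle pool of the same phase, CT20, read 11.32, and Cnga2 also had its lowest value at CT44, at 12.32.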

How the results depend on the processing

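No member passed in either fit under any alternative (25 for the 24 h fit, 22 for the cycles). In the cycle fit, leaving out either pool of a phase drops the whole pair and gives the same values. Leaving out CT32 and CT56 together repeats the fit without either, so the 22 are not all distinct. The single-gene tests give no adjusted count. The smallest adjusted p was 0.0767, for the cycle difference of Cngb1 with array weights. Relative to mature neuron markers every cycle difference is raised by the same 0.10, so those of Best2, Cnga4, Stoml3 and Slc12a2, which lay between that and 0, change sign by construction, to 0.023, 0.067, 0.049 and 0.097. That of Slc12a2, near 0 in the main fit, was also 0.025 with array weights and 0.0033 without CT32 and CT56, and with single pools left out it ran from -0.016 to 0.024. That of Cnga4 ran from -0.112 to 0.0030. With a period of 22 h no gene of the array passed the 24 h test (limma), and the count was 2 at 26 h or relative to neuron markers, 17 with phase as a factor, and 3 without CT20, CT24, CT36, CT44 or CT48, against 5. In the cycle fit 17 genes passed with array weights, 18 without CT12 or CT36 and 1 with a trended robust prior or without dim genes, against 0. At an unadjusted p under 0.05, counts ran from 492 to 3361 (24 h) and from 1416 to 4231 (cycles). Best2 was left out with the dim genes and has no value there. No replicate pairing other than the phase is given in the labels.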
